A study of Mus musculus with 24 samples.

Results

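The control libraries of mouse gastrocnemius, the large calf muscle, were compared with every library of muscle whose motor nerve had been lost (denervation). All 24 libraries of the series belong to this comparison: 4 control libraries and 20 denervated libraries, 4 at each of days 1, 3, 5, 7 and 14. The labels give no strain, sex, age, surgery, sham procedure or time of day, and control is described by its title alone. Each denervated library was set against the same 4 controls, and the means of the 5 days were averaged with equal weight. The question was which genes lie on one side of control at every labelled day. Such a gene can reflect a response that holds from the first to the last day or a level particular to the control libraries. With 1 control group, for which the labels give no day, these cannot be told apart.

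A muscle fibre that loses its nerve makes acetylcholine receptors along its whole surface, re-expresses myogenic transcription factors and wastes. Among the classical genes of this state are the receptor subunits, the receptor kinase Musk, the transcription factors Myog and Runx1, the deacetylase Hdac4, and the ubiquitin ligases Trim63 and Fbxo32, which mark many forms of atrophy. Immediate early genes such as Fos respond to a stimulus within minutes to hours, and genes such as Pdk4 and Depp1 respond to fasting and glucocorticoids.

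Library totals ran from 16082839 to 20696876 counts, and 14246 of 21965 genes were tested. The 20 most abundant genes held 36.8 ± 0.19% of the counts in control (SD, n = 4) and mean shares of 17.5% to 25.2% at the 5 days. TMM, a scaling that sets the bulk of genes level between libraries, gave factors of 0.693 to 0.707 in control and 0.904 to 1.19 in the denervated libraries. Scaling by library totals alone moved the median gene from 0.05 to 0.66 (log2, mean of the 5 days against control), a shift of 0.62. All changes below are relative to the bulk of genes, and counts with library totals are given for many of the lists. The text of the extraction protocol names dorsal root ganglion neurons, while the tissue label says gastrocnemius. The 7 of 14 sensory neuron genes that were tested summed to 12.6 to 15.6 CPM in control and 11.02 to 90.3 CPM in the denervated libraries, against 316000 to 323500 and 70970 to 168500 CPM for the fast fibre sarcomere list (CPM, counts scaled to library size after TMM).

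A gene was called on one side of control at every day where it passed the test (edgeR, adjusted p below 0.05) in the same direction at each of the 5 days and all 20 denervated libraries lay beyond all 4 control libraries. Above control at every day were 1393 genes (9.78% of the genes tested), and below it were 1916 genes (13.4%). By the mean of the 5 days alone, 10729 genes (75.3%) passed, 5567 higher (39.1%) and 5162 lower (36.2%), so the requirement at every day removed most of them. Single days passed for 34.5% (day 3) to 40.2% (day 7) of genes as higher, with 38.1%, 38.5% and 39.2% at days 1, 5 and 14, and for 36.2%, 35.7%, 35.8%, 36.7% and 35.3% as lower at days 1, 3, 5, 7 and 14. Of all genes tested, 4051 passed as higher at one day and as lower at another, and the mean of the days still called 2398 of these. With library totals alone, the mean of the days called 75.1% of genes higher and 11.9% lower, and 5070 genes lay above control at every day (35.6%) and 512 below (3.59%). All 1393 genes above control stayed above it with that scaling, whereas 512 of the 1916 below stayed below and 24 crossed to the other side. TMM factors were at most 0.707 in control and at least 0.904 after denervation, so library totals lower control against every denervated library. Genes above control were thus bound to stay above it, here and in the lists below, and only genes below it could leave their side. At least 2-fold at every day were 279 genes above (1.96%) and 278 below (1.95%), and with both scalings 279 above (1.96%) and 76 below (0.533%). Counts that combine both scalings or ask for 2-fold at every day were added after the data had been seen.

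Control and day 3 were the groups that stood apart most often. All 4 control libraries lay above the other 20 in 1945 genes (13.7%) and below them in 1421 (9.97%), together 23.6% of the genes tested. The 4 day 3 libraries did so in 1846 and 1271 genes (21.9%), and the other 4 groups in 4.9% to 10.8% of genes. Control and day 3 thus lay close together in this count. With library totals, control stood apart in 5630 genes, 5107 of them lower in control, and day 3 in 2271. Day 3 was also the denervated group most often nearest to control, in 450 of the 1393 genes above and 1025 of the 1916 below. Day 14 came close to that count among the genes above (413) but not among those below (268). Day 7 was most often the farthest, in 414 and 695 genes. Without the day 3 libraries, 2389 genes lay above control at every day and 2862 below.

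**Figure D1:**
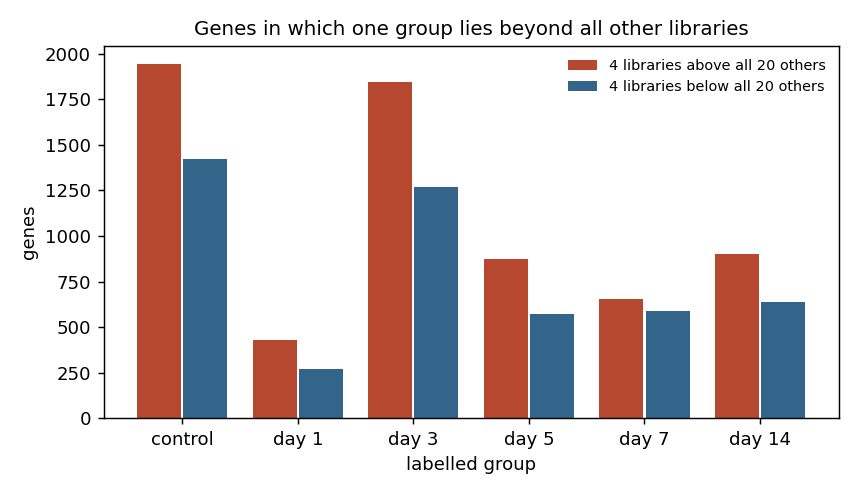
Number of genes (vertical axis, of 14246 tested) in which all 4 libraries of a group lay above (red bars) or below (blue bars) the other 20 libraries in CPM after TMM, for the 6 labelled groups. Control (1945 and 1421 genes) and day 3 (1846 and 1271) have the tallest bars.

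Most genes on one side still moved from day to day. A joint test among the 5 days, which uses no control library, passed for 13424 genes (94.2% of those tested), for 1355 of the 1393 above control and 1836 of the 1916 below. The distance between the highest and lowest day had a median of 0.76 (log2) in both sets, with a middle range of 0.48 to 1.23 above and 0.51 to 1.17 below. The difference between control and the denervated mean made up a median of 64.4% of the variation between the 6 group means in genes above and 63.7% in genes below, against 22.9% over all genes tested. That rise follows from the rule that chose these genes.

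Genes that the fibre is known to switch on after nerve loss rose as a group and mostly stayed above control at every day. In the list of denervation-induced signalling, 12 of 14 tested genes rose by the mean of the days and 2 fell (edgeR). Of the 14, 10 lay above control at every day and 1 below. The same 10 lay above with library totals, which follows from the lower TMM factors of control. The list median was 2.53 (log2), beside 0.05 over all genes tested.

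Ankrd1, a stress-responsive ankyrin repeat protein of the sarcomere (ENSMUSG00000024803, chromosome 19, 36111961 to 36120099, minus strand), had the largest rise that did not rest on a few counts in control. The 4 control libraries gave 3.00, 6.67, 2.49 and 2.94 CPM, and the 20 denervated libraries gave 159 at lowest, 465 at the median and 572 at highest. Even the lowest denervated library was far above the highest control. The rise was 104-fold (log2 6.70 ± 0.06, SE; edgeR adjusted p = 9.3e-53), smallest at day 3 (5.42) and largest at day 7 (7.22).

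Gdf5, a BMP ligand, stood at 0.43, 0.33, 0.08 and 0.34 CPM in control and at 7.54, 15.5 and 30.6 CPM after denervation, a rise of 54.1-fold (log2 5.76 ± 0.18). No denervated library came near the control range.

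Myog, which encodes myogenin (ENSMUSG00000026459, chromosome 1, 134289989 to 134292548, plus strand), gave 18.0, 22.0, 20.6 and 18.7 CPM in control. The denervated libraries ran from 99.1 through a median of 117 to 234 CPM, highest at day 14. Myog rose 6.55-fold (log2 2.71 ± 0.05, adjusted p = 1.09e-40). Musk, the kinase through which nerve agrin builds the junction (ENSMUSG00000057280, chromosome 4, 58285960 to 58374303, plus strand), gave 8.05, 9.50, 8.92 and 9.24 CPM in control and 44.3, 68.8 and 92.0 CPM as lowest, median and highest denervated value. It rose 7.46-fold (log2 2.90 ± 0.05), between 2.40 at day 5 and 3.31 at day 14. Myog and Musk thus kept a wide gap to control at every day while their levels still differed among the days (adjusted p = 1.6e-30 and 3.93e-25).

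Runx1, a transcription factor that limits the wasting of denervated fibres, stood at 11.3, 9.59, 11.2 and 11.2 CPM in control and at 30.6, 114 and 215 CPM in the lowest, median and highest denervated library (9.46-fold, log2 3.24 ± 0.04). Its rise was 1.57 (log2) at day 3 and 4.30 at day 14. Gadd45a, a growth arrest gene of denervated fibres, stood at 62.2, 71.2, 65.3 and 60.8 CPM in control and at 96.2, 342 and 719 CPM after denervation (5.09-fold, log2 2.35 ± 0.03). Hdac4, a deacetylase known from denervated fibres, was the steadiest of the group, with 51.5, 50.1, 48.7 and 47.4 CPM in control and 104, 153 and 169 CPM after denervation (2.93-fold, log2 1.55 ± 0.03). The 2 falling genes were Hdac9 (log2 −0.34) and Dach2 (−3.55), and Dach2, a transcriptional repressor of Myog, lay below control at every day with TMM. With library totals 0 of the 14 did so.

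At the neuromuscular junction the members split. Of 14 tested genes, 7 rose, 6 fell and 1 did not pass, 3 lay above control at every day and 5 below, and the list median was 0.28 (log2). With library totals 9 rose and 4 fell, 6 lay above control at every day and 1 below, so which side held more genes turned with the scaling. The receptor subunits were not on one side throughout. Chrna1, the alpha subunit, gave 39.2, 35.7, 35.6 and 41.4 CPM in control and 40.0, 413 and 1087 CPM in the denervated libraries, and its lowest day 3 library lay within the control range. Its day 3 change was 0.18 (log2) and its change at the other days 3.07 to 4.82. Chrng, the fetal gamma subunit, was 6.86, 0.57, 5.17, 7.44 and 9.57 (log2) from control at days 1, 3, 5, 7 and 14, and its day 3 value did not pass (adjusted p = 0.195). Chrnd, the delta subunit, met the rule, although its day 3 change was 0.38 (log2). With library totals alone, Chrna1 and Chrng also lay above control at every day.

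Chrne and Ache, which belong to the mature junction, fell. Chrne, the adult epsilon subunit, stood at 14.6, 14.8, 15.99 and 14.7 CPM in control and at 1.71, 4.73 and 8.90 CPM in the lowest, median and highest denervated library (log2 −1.91 ± 0.09). It was not below control at every day with library totals alone. Ache, the esterase that clears acetylcholine, stood at 40.6, 42.8, 42.2 and 43.3 CPM in control and at 3.78, 4.98 and 11.4 CPM after denervation (log2 −2.84 ± 0.07). All 20 denervated libraries lay below the lowest control for both genes.

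The promoters of 3 genes on one side of control are shown because they carry short motifs of factors named above and because the genes differ in behaviour: Musk lay above control with a moderate spread of days, Fos lay below it at an almost level distance, and Trim63 lay below it with very unequal days. Each is the RefSeq sequence of GRCm38.p6 from 250 bases before to 50 bases after the annotated start, 5′ to 3′, all on the plus strand: Musk chr4:58285712-58286011, Fos chr12:85473640-85473939 and Trim63 chr4:134314870-134315169. Capitals mark, on either strand, the E-box CAGCTG bound by myogenic factors, the FoxO core GTAAACA and the TGACG core of the cyclic AMP response element.
Musk: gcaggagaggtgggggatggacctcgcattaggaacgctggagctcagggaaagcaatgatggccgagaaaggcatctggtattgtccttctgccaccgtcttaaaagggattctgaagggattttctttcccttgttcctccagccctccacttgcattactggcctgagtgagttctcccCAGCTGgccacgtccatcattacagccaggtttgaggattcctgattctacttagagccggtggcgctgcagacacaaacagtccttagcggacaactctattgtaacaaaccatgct
Fos: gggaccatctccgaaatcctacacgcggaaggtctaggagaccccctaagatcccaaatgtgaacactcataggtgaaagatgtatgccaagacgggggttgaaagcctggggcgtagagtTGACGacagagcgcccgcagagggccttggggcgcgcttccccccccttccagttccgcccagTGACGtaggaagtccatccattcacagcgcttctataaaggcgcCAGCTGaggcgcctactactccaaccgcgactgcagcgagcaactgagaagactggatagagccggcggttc
Trim63: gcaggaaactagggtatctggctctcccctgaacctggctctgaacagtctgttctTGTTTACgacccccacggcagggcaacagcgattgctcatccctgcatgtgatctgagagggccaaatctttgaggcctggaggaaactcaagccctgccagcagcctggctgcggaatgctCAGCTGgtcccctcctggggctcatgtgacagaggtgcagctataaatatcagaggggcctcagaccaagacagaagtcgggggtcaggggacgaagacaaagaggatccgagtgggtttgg
Musk, Fos and Trim63 each held 1 E-box, Fos held 2 TGACG and Trim63 held 1 FoxO core. The E-box letters occurred in 16.1% of 14062 promoters of tested genes, in 20.2% of 272 promoters of genes at least 2-fold above control at every day and in 20.3% of 261 promoters of genes at least 2-fold below. The FoxO core occurred in 2.6%, 3.68% and 6.51% of the same sets and TGACG in 29%, 22.4% and 17.6%. Over all 32851 promoters of the table the shares were 16.3%, 3.65% and 20.8%. A match describes the letters of the window and is not a binding site shown by these data.

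Among immediate early genes, Fos and several partners were low at every labelled day. Of 22 tested members 8 rose and 14 fell by the mean of the days (edgeR), 3 lay above control at every day and 9 below, 6 of these 9 with both scalings. Fos (ENSMUSG00000021250, chromosome 12, 85473890 to 85477273, plus strand) gave 115, 109, 112 and 107 CPM in control and 7.40, 10.1 and 12.9 CPM in the lowest, median and highest denervated library. It was 11.3-fold lower (log2 −3.50 ± 0.04, adjusted p = 1.06e-47). Its 5 day values lay between −3.81 and −3.21, so that the denervated libraries formed a narrow band 0.61 (log2) wide while the controls stood far above them.

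Egr1, another transcription factor of this class, stood at 137, 142, 128 and 129 CPM in control and at 13.9, 19.5 and 47.3 CPM after denervation (log2 −2.56 ± 0.03). Fosb, Junb, Jund, Ier2, Dusp1, Zfp36 and Btg2 were the other 7 below control at every day. Above it at every day were Jun, Atf3 and Nr4a3. Nr4a3, an orphan nuclear receptor, changed by 0.66 at day 1 and 5.74 at day 3 (log2), so its side was constant and its size was not. The list median was −0.52 with TMM and 0.10 with library totals, so the direction of the list as a whole turns with the scaling, while Fos (−2.88 with library totals) and Egr1 keep theirs.

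Genes that respond to fasting and glucocorticoids were mostly low. Of 20 tested members 14 fell, 5 rose and 1 did not pass, with 11 below control at every day (7 with both scalings) and 1 above, and a median of −1.44 (log2; −0.83 with library totals). Pdk4, the kinase that closes pyruvate dehydrogenase in fasting (ENSMUSG00000019577, chromosome 6, 5483351 to 5496309, minus strand), gave 4716, 4650, 4768 and 4625 CPM in control. The denervated libraries ran from 167 through a median of 367 to 1689 CPM, highest at day 5. Pdk4 was 11.2-fold lower (log2 −3.48 ± 0.01, adjusted p = 1.09e-69). Depp1, a FoxO target induced by fasting (ENSMUSG00000048489, chromosome 6, 116650609 to 116652794, plus strand), had the largest fall of the named genes, from 382, 363, 358 and 371 CPM in control to 1.79, 14.7 and 118 CPM. Its log2 change was −1.70 at day 5 and −7.34 at day 7 (mean −4.87 ± 0.03). Both genes therefore came closest to control at day 5 without reaching it.

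Of the genes linked to atrophy, Trim63 and Fbxo32 lay below control at every day with TMM. Of 15 tested ligases and FoxO factors 12 fell, 2 rose and 1 did not pass, and 6 lay below control at every day, against 0 below and 4 above with library totals. Trim63 (ENSMUSG00000028834, chromosome 4, 134315120 to 134329629, plus strand) gave 2884, 3152, 3013 and 3085 CPM in control and 115, 818 and 2495 CPM in the lowest, median and highest denervated library (log2 −2.22 ± 0.02). Fbxo32 gave 2210, 2179, 2243 and 2221 CPM in control and 107, 577 and 1582 CPM after denervation (log2 −2.11 ± 0.01). Trim63 was −0.35 (log2) from control at day 5 and −4.65 at day 14, and Fbxo32 −0.50 and −4.34. With library totals alone, day 5 lay above control, at 0.30 for Trim63 and 0.15 for Fbxo32, so neither gene, and no member of this list, was below control at every day with both scalings. With TMM, Foxo1 changed little by the mean (0.14 ± 0.03), rising at day 5 (0.77) and day 7 (0.29) and falling at day 14 (−0.26). With library totals alone it lay above control at every day, at 0.75 by the mean and 0.455 at day 14.

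**Figure D2:**
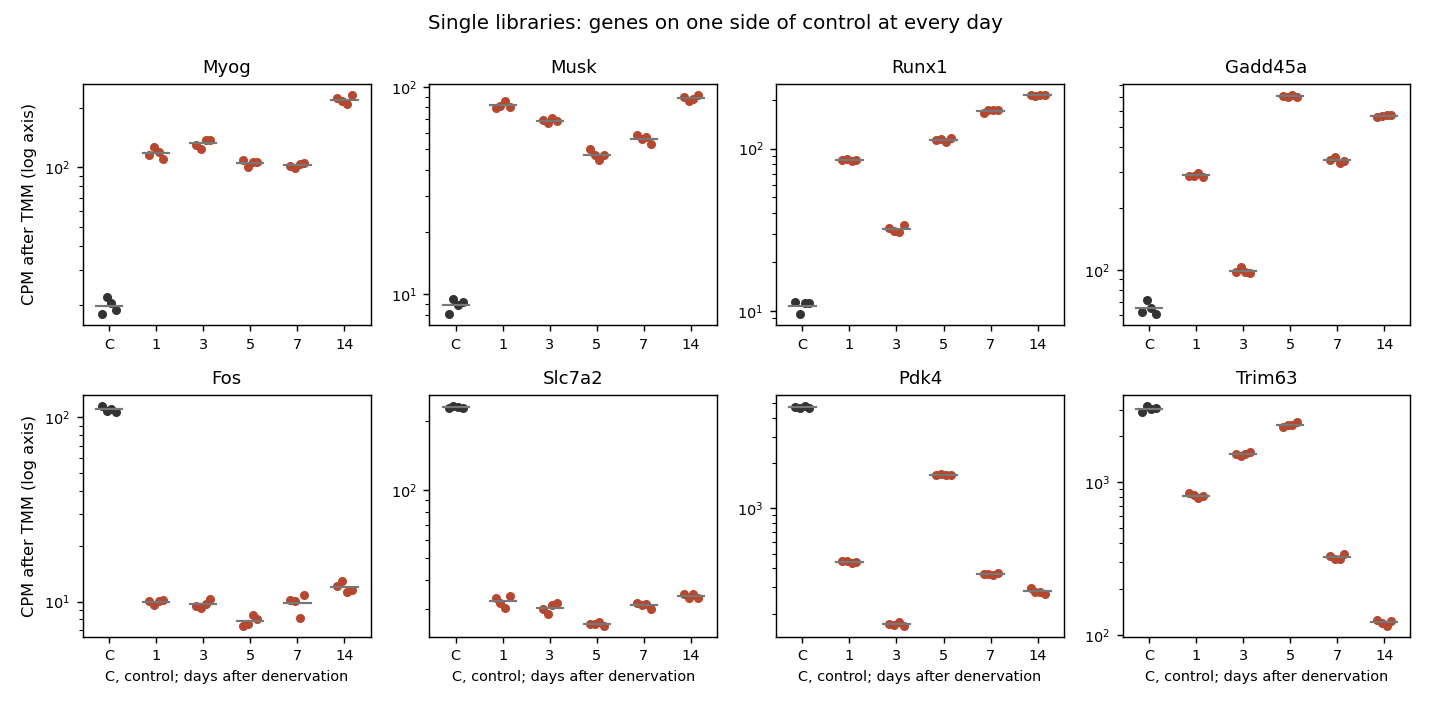
CPM after TMM (vertical log axes) in each of the 24 libraries (points; control dark, denervated red) by group (C, control; days after denervation), with group means as grey lines, for 4 genes above and 4 below control at every day. Fos and Slc7a2 keep a level distance from control, whereas Trim63 runs from close below control at day 5 to its lowest at day 14.

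Genes of contraction and energy supply of the fast fibre fell throughout. Of 14 fast fibre sarcomere genes all 14 fell, 13 of them below control at every day and 12 with both scalings (median −1.61, or −0.997 with library totals). Myh4, the myosin heavy chain of the fastest fibres, stood at 41300, 42520, 41970 and 41680 CPM in control and at 5315, 10830 and 19130 CPM in the lowest, median and highest denervated library (log2 −1.92 ± 0.01). Acta1, the skeletal actin, stood at 86940, 82330, 83900 and 82000 CPM in control and at 17250, 32720 and 41210 CPM after denervation (log2 −1.62 ± 0.01). With TMM both genes fell least at day 3 (Myh4 −1.17, Acta1 −1.04) and most at day 14 (−2.95 and −2.27). With library totals alone, day 1 lay slightly nearer to control than day 3 (Myh4 −0.745 and −0.789, Acta1 −0.656 and −0.661).

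Actc1, the cardiac actin that immature muscle also makes, fell from 4326, 4074, 4163 and 3987 CPM in control to 60.5, 174 and 740 CPM (21.5-fold, log2 −4.43 ± 0.02). Its list was split: of 8 embryonic and cardiac isoforms 4 rose and 4 fell, and Actc1 alone lay below control at every day. In bulk muscle, fewer cells of a type and less RNA per cell cannot be told apart, which applies to each list named here.

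Of 18 glycolysis and glycogen genes 16 fell and 2 rose, all 18 on one side at every day and 17 of them with both scalings. Eno3, the muscle enolase, stood at 7877, 7936, 7964 and 7910 CPM in control and at 414, 740 and 3010 CPM after denervation (8.81-fold lower, log2 −3.14 ± 0.01). Fbp2, the muscle fructose bisphosphatase, fell from 132, 135, 140 and 123 CPM to 1.56, 8.54 and 66.0 CPM (log2 −3.95 ± 0.04). Gapdh, used often as a reference gene, fell by 1.78 ± 0.01 on the log2 scale and lay below control in all 20 libraries, while Actb, another reference gene, rose by 0.74 ± 0.02.

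Oxidative genes fell together but less far from control. All 18 tricarboxylic acid cycle genes fell and all 18 lay below control at every day, 11 with both scalings (median −1.20). All 21 fatty acid genes fell, 19 at every day and 13 with both scalings (median −1.37). All 41 nuclear-encoded respiratory chain genes fell, 37 at every day, but with library totals 11 of them did so (median −1.04, or −0.42 with library totals). All 13 mitochondrially encoded genes fell, 11 at every day and 3 with both scalings (median −0.77). Fabp3, the fatty acid carrier of muscle, went from 1191, 1172, 1184 and 1170 CPM in control to 66.6, 172 and 846 CPM (log2 −2.69 ± 0.02). Its change was −0.58 at day 3 and −4.03 at day 7.

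Only a small group kept a nearly constant distance from control. Steady genes were those on one side at every day, at least 2-fold at each day, with the highest and lowest day within 0.5 (log2) of each other. There were 15 above control (0.105% of genes tested) and 29 below (0.204%), together 0.309%, with mean changes of 1.22 to 3.23 and −2.91 to −1.07. The joint test among days did not pass for 6 of the 15 and 11 of the 29, which does not show that their days are equal. A width of 0.3 left 4 above and 8 below, and a width of 0.8 gave 41 and 73. Just outside the width of 0.5 lay, among others, Dnm3 (0.51), Egflam (0.51), Pum3 (0.52), Plcd3 (0.52), Clybl (0.53) and Hdac4 (0.54).

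Slc7a2, a transporter of cationic amino acids such as arginine (ENSMUSG00000031596, chromosome 8, 40862396 to 40922308, plus strand), led the steady falls. Control gave 228, 233, 230 and 230 CPM, and the denervated libraries 25.2, 31.4 and 34.7 CPM as lowest, median and highest. The fall was 7.53-fold (log2 −2.91 ± 0.03, adjusted p = 2.28e-53), with day values from −3.16 to −2.76. Eepd1, an endonuclease-like protein (ENSMUSG00000036611, chromosome 9, 25481547 to 25604110, plus strand), gave 199, 201, 202 and 205 CPM in control and 21.7, 27.1 and 32.7 CPM after denervation (log2 −2.89 ± 0.03). Klhl31, a kelch protein of muscle, gave 312, 305, 314 and 304 CPM in control and 43.3, 52.9 and 67.1 CPM after denervation (log2 −2.50 ± 0.02). In these 3 genes the 20 denervated libraries spanned less than the gap that parted them from control, which follows largely from the rule that chose them.

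Zfp956, a zinc finger gene (ENSMUSG00000045466, chromosome 6, 47953390 to 47965300, plus strand), showed the narrowest band of the steady genes named below control. It gave 21.7, 20.8, 22.8 and 20.7 CPM in control and 4.76, 5.47 and 7.40 CPM after denervation (log2 −1.92 ± 0.08, width 0.19), and its days did not pass the joint test (adjusted p = 0.624). Asb4 (−2.41 ± 0.11), a substrate adaptor of ubiquitin ligases, and Fn3k (−2.45 ± 0.16), a kinase that removes sugar from proteins, did not pass it either (adjusted p = 0.474 and 0.234). The other steady genes below control included Ier2, an immediate early gene, Idh3a, a subunit of isocitrate dehydrogenase, Sox18, a transcription factor of endothelium, Gucy1a1, a subunit of the nitric oxide receptor, and Hoxa3 and Hoxb3.

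Above control, Traf3, an adaptor of TNF receptor signalling (ENSMUSG00000021277, chromosome 12, 111166370 to 111267153, plus strand), gave 15.4, 19.0, 15.4 and 18.1 CPM in control and 40.5, 45.7 and 52.4 CPM after denervation. It rose 2.64-fold (log2 1.40 ± 0.05), within 1.29 to 1.49 across the days. Coq8b, a kinase-like protein of coenzyme Q synthesis, gave 6.08, 4.25, 7.47 and 4.12 CPM in control and 12.5, 14.6 and 18.7 CPM after denervation (log2 1.41 ± 0.10). Nubp1 (1.69 ± 0.09), a scaffold of iron-sulfur clusters, had the largest steady rise among the better expressed genes, followed by Cyth4 (1.52 ± 0.07), an exchange factor of Arf proteins. Steady with both scalings were 6 genes above control (Coq8b, Thg1l, Dbnl, Traf3, Pop1 and C5ar2) and 5 below (Fn3k, Eepd1, Asb4, Zfp956 and Lgals4).

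**Figure D3:**
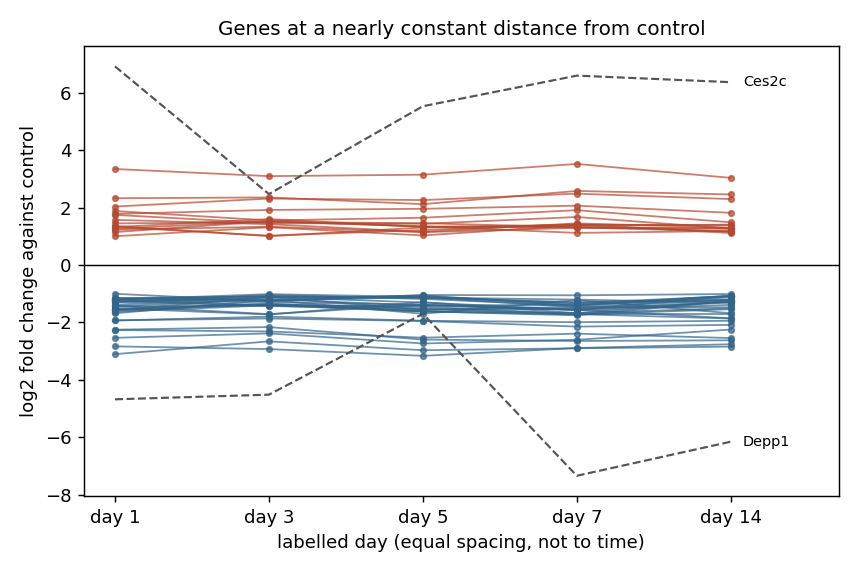
Log2 fold change against control (vertical axis) at the 5 labelled days (horizontal axis, equal spacing) for the 15 steady genes above control (red) and the 29 below (blue), with Ces2c and Depp1 as dashed grey examples of genes on one side at unequal distances. The coloured lines are nearly flat, while Depp1 runs between −1.70 and −7.34.

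The marker lists of other cell types moved in both directions. Macrophage markers rose in 15 of 16 tested genes, 12 of them above control at every day with both scalings (median 1.36). Itgam, an integrin of myeloid cells, stood at 10.5, 11.2, 10.3 and 10.7 CPM in control and at 20.2, 51.7 and 103 CPM in the lowest, median and highest denervated library (log2 2.21 ± 0.06), highest at day 3. The list median was lowest at that day, at 0.92, and 1.54, 1.64, 1.72 and 0.99 at days 1, 5, 7 and 14. Itgam thus differed from the list median, as did the members Arg1 and Fcgr1, which were also highest at day 3 with library totals. The summed level of the macrophage markers was 732 to 736 CPM in control and 1243 to 2011 CPM after denervation. Adipocyte markers rose in 8 of 8, 6 of them at every day. Plin1, the coat protein of fat droplets, stood at 2.23, 2.67, 3.62 and 2.69 CPM in control and at 14.8, 36.3 and 97.7 CPM after denervation (log2 3.93 ± 0.08).

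Lymphocyte markers rose in 13 of 14 tested genes by the mean of the days and none lay above control at every day. Their day medians were 5.13, −0.42, 5.74, 0.32 and 0.00 (log2) at days 1, 3, 5, 7 and 14, highest at days 1 and 5. Of 6 lymph node vessel markers 5 rose and 1 lay above control at every day (median 2.88, or 2.70 with genes at 0 in control taken at their bound). Trdc, a T cell receptor constant segment, lay above control in all 20 libraries, at 1.82, 4.04 and 16.7 CPM, with 1 count in the 4 control libraries together. The part of other cells in the results of this comparison was not tested.

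Endothelial markers fell in 9 of 9 tested genes and all 9 lay below control at every day, 3 of them with both scalings (median −0.98). Cldn5, the tight junction protein of endothelium (ENSMUSG00000041378, chromosome 16, 18776847 to 18778262, plus strand), stood at 186, 193, 189 and 184 CPM in control and at 12.9, 35.7 and 43.1 CPM after denervation (log2 −2.85 ± 0.03). Myelin genes fell likewise. Of 10 myelinating Schwann cell markers 7 fell and 2 rose, with 7 below control at every day and 6 with both scalings. Of 7 repair Schwann cell markers 6 rose and 1 did not pass (median 3.20). Their day medians were 3.57, 0.27, 3.97, 3.20 and 3.51 (log2) at days 1, 3, 5, 7 and 14. Gdnf, a growth factor of repair Schwann cells, rose 16.2-fold and was the 1 repair marker above control at every day.

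In the heat shock and unfolded protein lists more genes rose than fell. Of 14 heat shock genes 11 rose, 2 fell and 1 did not pass, with 6 above control at every day and 9 with library totals. Hspb8, a small heat shock protein of protein quality control, stood at 525, 511, 500 and 502 CPM in control and at 1721, 2041 and 2633 CPM after denervation (4.00-fold, log2 2.00 ± 0.01), all days within 0.61 of each other. Of 17 unfolded protein and stress response genes 11 rose and 6 fell, 8 above control at every day and 3 below, or 9 and 1 with library totals. Sdf2l1, an endoplasmic reticulum chaperone partner, rose 8.99-fold (log2 3.17 ± 0.17), whereas Chac1, which degrades glutathione, fell by 3.36 ± 0.04 on the log2 scale.

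Proteasome and ribosome genes shifted little by the mean of the days with TMM, and their counts depended on the scaling. Of 31 proteasome genes 21 rose and 9 fell, with 5 above control at every day, and 29 with library totals (median 0.18 or 0.80). The proteasome median with TMM was 0.28, 0.73, 0.18, −0.19 and −0.29 (log2) at days 1, 3, 5, 7 and 14. Of 26 ribosomal protein genes 23 rose and 2 fell, with 12 above control at every day, and 26 with library totals (median 0.28 or 0.90). Of 26 genes of extracellular vesicle formation 15 rose and 6 fell, 8 above control at every day and 3 below. With library totals 23 rose and 2 fell, 19 above at every day and 0 below. Over all genes tested 39.1% rose and 36.2% fell with TMM, 9.78% above control at every day and 13.4% below. The same shares with library totals were 75.1%, 11.9%, 35.6% and 3.59%, so much of the change in these counts is shared by all genes. Cd63, a tetraspanin of vesicles, stood at 142, 139, 140 and 149 CPM in control and at 217, 234 and 404 CPM after denervation (1.99-fold, log2 0.99 ± 0.02), whereas Cd81, another tetraspanin, was at −0.28 ± 0.02 with TMM and at 0.33 with library totals.

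**Figure D4:**
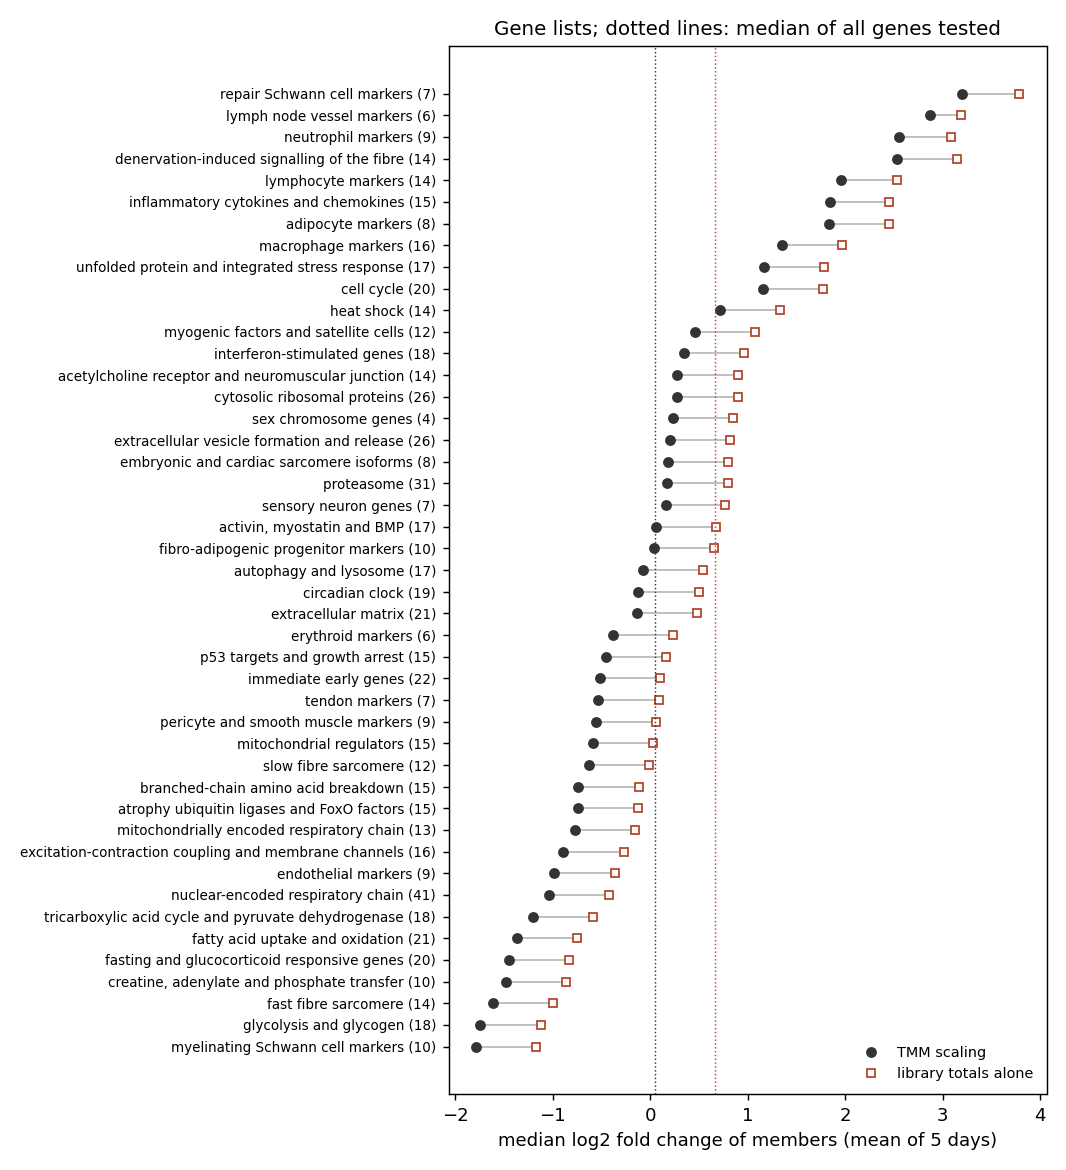
Median log2 fold change of the tested members (horizontal axis; number of members in brackets), mean of the 5 days against control, for 45 gene lists with TMM (black) and with library totals alone (open red); dotted lines give the median of all genes tested (0.05 and 0.66). Myelinating Schwann cell (−1.79) and glycolysis (−1.74) lists lie lowest with TMM, and 9 lists have medians of opposite sign with the 2 scalings.

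Some of the largest rises belong to gene families with near-identical members, so that the counting could move reads between copies. Mup18, a major urinary protein of liver, had 1 count in the 4 control libraries together and 1.97, 5.25 and 27.4 CPM in the lowest, median and highest denervated library. Its ratio to control was 475 (95% counting interval 85.2 to 18800), and that of Trdc 309 (55.3 to 12200), each resting on 1 count. Orm1, an acute phase protein, had 3 counts in control and a ratio of 130 (44.4 to 630). The intervals cover counting error only. Mup22, a related urinary protein, and Ces2c, a carboxylesterase, rose by 5.56 ± 0.16 and 5.57 ± 0.14 on the log2 scale. S100a8 and S100a9, which neutrophils make, rose by 6.41 ± 0.24 and 4.97 ± 0.29. S100a9 reached 7.55 at day 3 and 1.29 at day 14, while S100a8 stayed between 5.73 and 7.33.

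No gene was silent in one arm and clearly present in the other. At a CPM of at least 1 in all libraries of one arm and 0 counts throughout the other, 0 genes were found in either direction. Of the tested genes, 98 had no count in any control library, 7 of these were counted in all 20 denervated libraries, and 0 tested genes were at 0 in all denervated libraries. Ddx3y, carried by the Y chromosome, was present in all libraries, at 44.9 to 50.3 CPM in control and 44.6 to 76.2 CPM after denervation.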

How the data were processed

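RNA-seq libraries of mouse gastrocnemius (24, 4 per group) were analysed from the table that the authors deposited, which gives expected counts and TPM per gene, per the file headers. TPM was not used for any printed value. Of the expected counts, 7.01% were not whole, and all were rounded. RNA was extracted with TRIzol and libraries made from poly(A) RNA with a NEBNext Ultra kit, per the labels' protocols. Aligner, counting program, build and strandedness: not given in the sources used here. Groups come from the titles. No label ties a library to its own animal, and the p-values therefore reflect only how these libraries scatter, possibly for technical reasons.

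All 24 libraries entered 1 fit of edgeR 4.0.16 (R 4.3.3): TMM, its default filter, quasi-likelihood, 1 coefficient per group, two-sided tests, Benjamini-Hochberg adjustment over all genes tested. Contrasts were the mean of the 5 days minus control, each day minus control, and the 5 days among themselves. Standard errors of log2 fold changes come from that fit. The 5 comparisons share the 4 control libraries, so a gene on one side at every day is not supported 5 times. Log2 CPM for naming used a prior count of 2. Coordinates are 1-based from GENCODE M21 of GRCm38 (21854 identifiers matched), which may not be the authors' build, and 412 of 557 genes at least 2-fold from control at every day had a promoter in the RefSeq table, some with several starts.

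The members and the 45 gene lists were chosen with earlier results of these data known. Named were the 10 largest rises and falls on one side, the 6 largest steady genes each way, up to 3 members per list, and 25 key genes; some are not reported here. Names given as further list members, just outside the steady width or as steady in both scalings fall outside this rule and were chosen after their values were seen.

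Mean chi-square per gene between libraries of a group was 2.04 to 3.86 over 36 pairs, so no library is a copy of another in its group. This value cannot tell separate animals from separate preparations of one RNA. The common biological coefficient of variation, the relative spread between libraries of a group in the fit, was 0.0389. Replicate numbers did not pair libraries (median r of same-numbered deviations 0.00648, with 2 of 60 over 0.1). Alternatives were DESeq2 1.42.0 and its size factors, library totals, other filters, a replicate block, a fit of 2 groups, each library or day left out, and other widths. The programs were tested on simulated counts.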

Additional observations from a re-analysis of the deposited data

Results flagged for a closer look

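Among 146 named genes on one side of control, 1 of the 4 control libraries stood far from the other 3 in 11 genes; such a flag is expected by chance in about 1 of 20 groups. In control library 2, Mup18 and Trdc each stood at 0.0834 CPM (1 count) with the others at 0, Ankrd1 at 6.67 CPM (others 2.49 to 3.00), Mybpc2 at 10260 CPM (others 10050 to 10070), Acvr2b at 12.1 CPM (others 9.83 to 10.02) and Runx1 at 9.59 CPM (others 11.2 to 11.3). In control library 1, Nr4a3 stood at 0.771 CPM (others 1.04 to 1.09) and Arg1 at 0.0856 CPM (others 0.161 to 0.168). In control library 3, Ccl19 stood at 1.37 CPM (others 0.417 to 0.514) and Chrne at 15.99 CPM (others 14.6 to 14.8), and in control library 4, Prx stood at 45.9 CPM (others 49.0 to 49.1). Only genes on one side of control were examined, so all denervated libraries lay beyond that control library by the rule that chose them.

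For 4 named genes the days passed the test against control in opposite directions with TMM, and the joint edgeR test among the days passed. Foxo1 was 0.77 (log2) from control at its highest day and −0.26 at its lowest (adjusted p = 7.42e-29). Myh7, the slow myosin heavy chain, was 0.15 and −3.63 (adjusted p = 7.76e-51). Ppargc1a, a regulator of mitochondria, was 1.13 and −0.58 (adjusted p = 5.09e-23). Dbp, an output gene of the circadian clock, was 2.75 and −0.47 (adjusted p = 1.99e-42). For these genes the mean of the days describes no single day. The opposite directions depended on the scaling for most of them. With library totals alone, Foxo1 lay above control at every day. Ppargc1a was then −0.0026 at day 1 and Dbp −0.095 at day 3, their only days below 0. Myh7 kept both signs, with −3.05 at day 1 and 0.87 at day 14.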

How the results depend on the processing

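With DESeq2, its size factors in edgeR, no filter or a stricter one (CPM 1 in 4 libraries), every count stayed within 1.5 times its value and all 153 named genes kept direction and call. A fit with a replicate block gave 5561 higher, 5154 lower, 1395 above control at every day and 1916 below, and changed no call of a named gene; 9 of 24 libraries correlated best with a library of their own number. Leaving out each library in turn gave 5318 to 5602 higher, 4976 to 5175 lower, 1394 to 1489 above, 1911 to 1962 below, 13 to 20 and 22 to 29 steady above and below, and 13434 to 13540 genes differing among days.

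Library totals alone gave 10692 higher and 1689 lower genes, 5070 above and 512 below at every day, and 107 and 5 steady. The same side with both scalings left 512 below, and 6 and 5 steady. Reversed with library totals were Tpm3 (0.0566), Gsn (0.13), Dcn (0.18), Pdgfra (0.34) and Cd81 (0.33), and the medians of mitochondrial regulators (0.034), circadian clock (0.50), immediate early genes (0.10), autophagy and lysosome (0.54), p53 targets (0.16), extracellular matrix (0.49), erythroid (0.24), pericyte (0.064) and tendon (0.087) lists. TMM assumes that the bulk of genes is level, which these data cannot show.

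A fit of 2 groups, which counts differences between days as spread, gave 3561 higher and 3117 lower genes, and no call for Foxo1, Myh7, Ppargc1a and Ddx3y; its medians reversed for extracellular matrix (0.041) and erythroid (0.64). Without day 3, 2389 genes lay above control, 85 and 185 were steady, and the medians of extracellular matrix (0.20) and erythroid (0.04) reversed. Steady genes above control were 34 without day 1, 41 without day 5 (55 below), 34 without day 7 and 58 without day 14 (49 below); fewer days make the rule easier. Foxo1 reversed without day 5 (−0.0235), and the autophagy median without day 14 (0.013). Ppargc1a did not pass without day 3 or day 5. At least 1.5-fold at every day were 630 above and 747 below, at least 2-fold 279 and 278, and 2-fold with both scalings 279 and 76. Widths of 0.3 and 0.8 gave 4 and 8, and 41 and 73 steady genes.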

Other observations

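Hox genes, transcription factors that keep a record of position along the body in adult tissue, were mostly lower than control. They were chosen after their values had been seen and are given as a description. Of 28 tested Hox genes 21 were lower, 2 higher and 5 did not pass by the mean of the days (edgeR), with 7 below control at every day and 0 above, and a median of −0.74 (log2). Over all genes tested 36.2% were lower and 39.1% higher, with 13.4% below control at every day and 9.78% above. With library totals alone 11 Hox genes were lower, 10 higher and 0 below control at every day (median −0.13), so the share on one side depends on the scaling. The shares over all genes were then 11.9% lower, 75.1% higher and 3.59% below at every day. Hoxd8 went from a control mean of 39.6 CPM to 22.8 CPM over the 5 days (log2 −0.82 ± 0.05) and Hoxd9 from 24.3 to 11.2 CPM (−1.15 ± 0.07). Hoxb3 (−1.38 ± 0.18) and Hoxa3 (−1.33 ± 0.15) were steady across the days. The 2 higher genes, Hoxc5 (1.06 ± 0.26) and Hoxc4 (0.45 ± 0.14), belong to the Hoxc cluster.

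Circadian clock genes did not move as one. Of 19 tested members 12 fell, 6 rose and 1 did not pass with TMM (median −0.12). At every day 2 lay above control (Clock and Bhlhe40) and 4 below (among them Npas2, Per1 and Nr1d1), 2 of those 4 with both scalings. With library totals 12 rose and 6 fell, 4 lay above and 2 below at every day, and the median was 0.50. The direction of the list thus turned with the scaling. Over all genes tested 39.1% rose and 36.2% fell with TMM, and 75.1% and 11.9% with library totals. Per1 stood at 129, 124, 124 and 125 CPM in the 4 control libraries and at 13.9, 73.4 and 87.7 CPM in the lowest, median and highest denervated library, with changes of −0.57 at day 3 and −3.11 at day 7 (log2). With library totals Per1 was not on one side of control at every day. The labels give no time of day for any group.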
